A study of Mus musculus with 3 samples.

Results

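The contacts of Shh were followed in 3 Capture Hi-C (CHi-C) libraries, named Samples 3, 4 and 5. Capture Hi-C joins DNA fragments that lay close together in fixed nuclei and then enriches the joined fragments for chosen regions by hybridisation. Each joined pair is read from both ends and is called a di-tag. A di-tag belonged to Shh when at least 1 of its ends mapped to the 40 kb window chr5:28770000-28809999 of the mouse genome build mm9. Of 26794867 di-tags left in the 3 libraries after removal of duplicates, 1987 met this rule. They were 805 of 9376907 di-tags in Sample 3, 582 of 8596799 in Sample 4 and 600 of 8821161 in Sample 5.

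All 3 libraries came from mouse (strain C57BL/6) cells fixed with formaldehyde and digested with HindIII, and all carry the cell type label embryonic stem cells. They form 1 group of 3 libraries with no treated or control arm. Nothing says whether the 3 were separate cultures, so the spread between them may be technical. The source of Sample 3 is given as foetal liver cells, which conflicts with the cell type given for that library, while source and cell type are the same for Samples 4 and 5. The study's text describes all of these libraries as made from mouse embryonic stem cells. CHi-C reads contacts and not expression, so neither label could be set against marker genes. Cell source, capture and sequencing depth cannot be told apart in a difference between Sample 3 and the others, and results are therefore given for each library.

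Shh encodes Sonic hedgehog, a secreted signalling protein that patterns the limb bud, the neural tube and many other organs of the embryo. The gene is known for enhancers spread over a very long stretch of DNA on 1 side of it. The farthest, which drives Shh in the posterior limb bud, lies in an intron of Lmbr1, a broadly expressed membrane protein gene. Shh is generally not transcribed in embryonic stem cells, in which chromosome contacts between the gene and its enhancers can be examined in the absence of expression. In the RefSeq gene order of build GRCm38.p6, the protein-coding genes following Shh at higher coordinates were Rnf32, Lmbr1, Nom1, Mnx1 (a homeobox gene of motor neurons) and Ube3c (a ubiquitin ligase). Those on the lower side were, going away from Shh, Rbm33, Cnpy1, En2 (a homeobox gene of the midbrain and hindbrain), Insig1 (a regulator of sterol synthesis) and Htr5a (a serotonin receptor). This table gives no mm9 positions, so these names give order only, and no gene is assigned to any partner bin.

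Ends inside the window were unevenly placed. The 2112 ends fell in 14 of the 40 steps of 1 kb and formed 7 clusters separated by gaps of more than 1 kb. The cluster at chr5:28789111-28789955 held 345, 203 and 190 ends in Samples 3, 4 and 5. The cluster at chr5:28793240-28794638 held 242, 169 and 166. Together these clusters held 69.5%, 59.3% and 55.5% of the ends, so most of what is described for Shh was seen from them. The first 10 kb of the window, chr5:28770000-28779999, held 0 ends in every library, a count that allows up to 3 ends in each as a one-sided limit. The study's pipeline removes reads that map too far from a cut site. Cut sites of HindIII were not mapped here, so that limit assumes a usable site in the region. Coverage, the number of di-tag ends in a 10 kb region, was highest in the middle of the window. The regions starting at 28780000 and 28790000 lay between percentiles 95.6 and 97.5 of all covered regions, the region starting at 28800000 at percentiles 74.3, 81.2 and 86.9, and a covered region had a median of 44 to 50 ends.

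**Figure D1:**
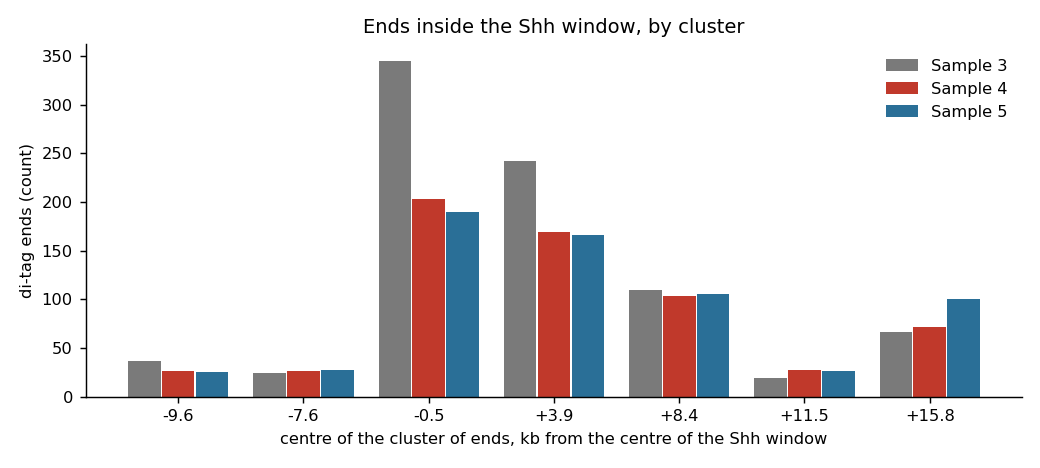
Di-tag ends (count) in each of the 7 clusters of the Shh window, placed by the distance of the cluster centre from the window centre in kb, with 1 bar for each library. The clusters centred near the middle of the window held 345, 203 and 190 ends and 242, 169 and 166 ends, more than any other cluster in each library.

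Most Shh di-tags joined another chromosome. These trans di-tags were 408 in Sample 3, 50.7% of its Shh di-tags (95% exact binomial interval 47.2 to 54.2), 373 in Sample 4 (64.1%, 60.0 to 68.0) and 394 in Sample 5 (65.7%, 61.7 to 69.5). A share over di-tags cannot be set against that of the whole chromosome, where both ends of a cis di-tag lie in the set, so ends were compared instead. Of the ends in the Shh window 48.3%, 59.5% and 61.5% belonged to trans di-tags in Samples 3, 4 and 5, against 50.1%, 66.1% and 70.4% of all other ends on chromosome 5. The difference was -1.75, -6.63 and -8.90 percentage points, small in Sample 3 and larger in the others (exact sign-flip permutation p = 0.25 over the 3 libraries, the smallest possible). The trans share of the whole library, in which each di-tag counts once, was 52.0%, 67.4% and 71.6%, so Sample 3 was lowest on every one of these measures. No trans region of 50 kb recurred in all 3 libraries, and of 1150 such regions seen 14 were seen in 2. No region held more than 2 di-tags of 1 library, and recurrence for other windows is not given. This low recurrence is therefore no result about Shh. Reads carry no molecular identifiers in these lists. All intervals are computed from the counts themselves and so cover counting error only.

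Within chromosome 5, the libraries differed in how far Shh di-tags reached. Di-tags with 1 end in the window and the other elsewhere on the chromosome numbered 358 in Sample 3, 164 in Sample 4 and 165 in Sample 5. Those spanning at least 2 Mb were 230, 56 and 55, that is 64.2% (59.0 to 69.2), 34.1% (26.9 to 41.9) and 33.3% (26.2 to 41.1). The Sample 3 interval lay above the other intervals, which overlapped. The libraries' own shares of cis di-tags of that length were 55.6%, 27.6% and 28.2%, also highest in Sample 3. Those shares are taken over all cis di-tags. The Shh shares leave out the 39, 45 and 41 di-tags with both ends in the window, which raises them. Only the order of the libraries can therefore be compared, and not the level of Shh with that of its library. In the displayed stretch of 3 Mb around Shh, chr5:27800000-30799999, the counts were close, at 117, 104 and 107 di-tags.

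The distal limb enhancer stretch was taken as chr5:29630000-29659999, as the choice of regions names it, since no mm9 annotation was used here. It lies with its centre 855 kb from the centre of the Shh window. Its comparison was the stretch of the same length at the same distance on the other side, chr5:27920000-27949999. Di-tags between the Shh window and the enhancer stretch numbered 2 in Sample 3, 6 in Sample 4 and 2 in Sample 5. Those with the mirrored stretch numbered 1, 0 and 1. The enhancer stretch was thus ahead in every library, by a single di-tag in Samples 3 and 5 and by 6 in Sample 4. Per library the two-sided exact binomial test gave p = 1, 0.03125 and 1, and 1, 0.094 and 1 after Benjamini-Hochberg adjustment over the 3 libraries. The mean log2 ratio, with 0.5 added to each count, was 1.72, and the exact sign-flip permutation test over libraries (n = 3, two-sided) gave p = 0.25, the smallest that 3 libraries allow. The mean fell to 0.74 without Sample 4 and was 2.84 with duplicates retained. Summed over libraries, a step added after the counts were seen, 10 di-tags stood against 2 (exact binomial p = 0.0386, counting error only), and 6 of the 10 came from Sample 4.

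The di-tags to the enhancer stretch came from several places in the window. In Sample 4 the 6 had their Shh ends between 28793525 and 28805116 and their far ends between 29635503 and 29658183, with no position shared. In Sample 3 the di-tags joined 28789544 to 29652357 and 28789685 to 29652504. In Sample 5 the di-tag from 28789683 to 29652316 joined the same neighbourhood, and the other went to 29630055. The mirrored di-tags of Samples 3 and 5 ended at 27921629 and 27931818. The same pair of places was therefore seen in Samples 3 and 5, and none of the 6 di-tags of Sample 4 joined them.

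The stretch was less distinct from its own neighbourhood. Flanks of the same length, centred 795 and 915 kb from the centre of the Shh window, held 1 and 1 di-tags in Sample 3, 2 and 4 in Sample 4, and 2 and 4 in Sample 5, giving the flank towards Shh first. Against both flanks together, the exact binomial test gave p = 0.605, 0.232 and 1, and 0.392 for the sum of 10 against 5 and 9. Sample 5 held more di-tags in the far flank than in the stretch itself. Di-tags were thus not shown to be concentrated on the enhancer stretch within its surroundings at this depth. Seen from the enhancer stretch, the Shh window gave 2, 6 and 2 di-tags, and the window of the same length at the same distance on its far side, chr5:30480000-30519999, gave 1, 0 and 0. That comparison gave exact binomial p = 1, 0.03125 and 0.5 per library, of which none passed after adjustment, the lowest being 0.094.

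Coverage was unequal between these stretches, so the counts were also set against those expected from distance and from the ends in both regions. The enhancer stretch held 282, 289 and 305 ends of all di-tags and the mirrored stretch 198, 202 and 211. The expected counts for the enhancer stretch were 0.633, 0.346 and 0.298 di-tags, so observed over expected was 3.16 (exact Poisson interval 0.383 to 11.4), 17.3 (6.36 to 37.7) and 6.71 (0.813 to 24.3). The two-sided exact Poisson test adjusted over the 3 libraries gave p = 0.266, 1.1e-05 and 0.109, so the excess over a ratio of 1 passed in Sample 4 alone. All partners 500 to 970 kb away on the side of the stretch, the stretch included, were 1.93, 7.12 and 6.86 times expected. Those ratios lie inside the intervals of the stretch, so the test does not set it apart from the rest of that side. For the mirrored stretch observed over expected was 2.25 in Sample 3, 0 in Sample 4 and 4.87 in Sample 5. Over the 3 libraries the ratio was 7.83 (3.76 to 14.4) for the enhancer stretch and 2.25 (0.272 to 8.12) for the mirrored stretch, and these intervals overlap. The flanks together, whose expected counts are higher because the far flank held 893, 513 and 499 ends, gave 0.847 (0.103 to 3.06), 7.37 (2.70 to 16.0) and 8.92 (3.28 to 19.4) per library. Over the 3 libraries they gave 3.64 (1.99 to 6.11), an interval that overlaps that of the enhancer stretch. Without Sample 4 the ratio for the enhancer stretch was 4.30, and without Sample 3 it was 12.4.

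**Figure D2:**
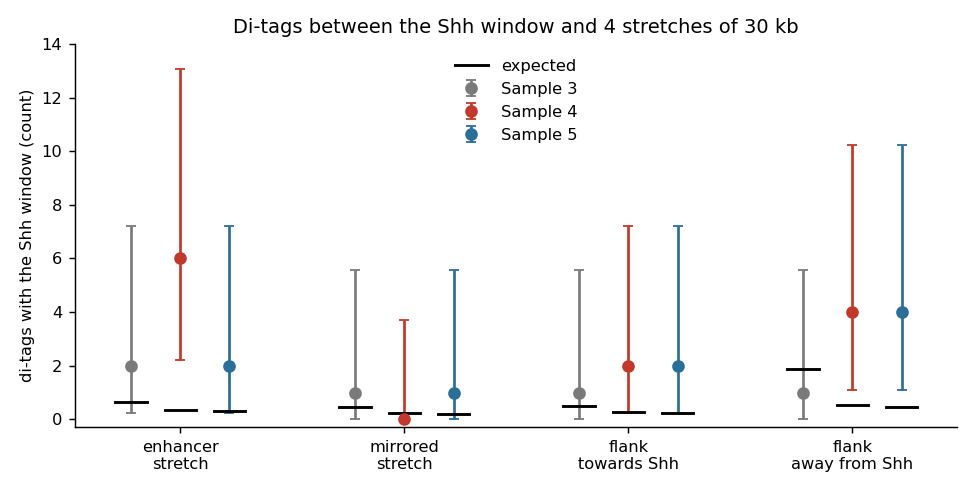
Di-tags (count) between the Shh window and the enhancer stretch, the mirrored stretch and both flanks, each of 30 kb. Points are libraries, bars exact Poisson intervals and black dashes the expected counts. The 6 di-tags of Sample 4 in the enhancer stretch stand farthest above their expected count of 0.346, and the intervals of the enhancer stretch and its flanks overlap in every library.

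The same asymmetry was examined over the whole domain. Partners within 970 kb of either window edge, the range that the displayed stretch holds on both sides, were 55 on the lower side and 48 on the higher side in Sample 3. They were 34 and 67 in Sample 4, and 42 and 53 in Sample 5. The higher side, on which the enhancer stretch lies, held 46.6% (36.7 to 56.7), 66.3% (56.2 to 75.4) and 55.8% (45.2 to 66.0) of them. Against equal sides the exact binomial test gave p = 0.555, 0.00133 and 0.305 (0.555, 0.004 and 0.457 after adjustment over libraries). The mean was 56.2% ± 9.88 (SD, n = 3; exact sign-flip permutation p = 0.5), so against equal sides none was favoured beyond the spread between libraries. Distance and coverage gave an expected share of 37.9%, 42.3% and 43.0% on the higher side, and all 3 libraries lay above it. Against that share the exact binomial test gave adjusted p = 0.0838, 4.3e-06 and 0.0194, so Sample 5 passed there and not against equal sides.

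Against equal sides, the shares moved with distance in Samples 4 and 5. Nearer than 500 kb, the higher side held 31 of 65 partners in Sample 3, 33 of 59 in Sample 4 and 25 of 59 in Sample 5, all within the counting error of equal sides (exact binomial p = 0.804, 0.435 and 0.298). Against the shares expected there, 34.98%, 41.3% and 42.4%, the exact binomial test gave p = 0.0371, 0.0247 and 1 (0.0556, 0.0556 and 1 after adjustment over libraries). Observed over expected on the higher side was 1.65 (1.12 to 2.35) in Sample 3, 1.78 (1.23 to 2.51) in Sample 4 and 1.52 (0.981 to 2.24) in Sample 5, and on the lower side 0.976, 0.990 and 1.52. On that baseline the higher side was thus already ahead near Shh in Samples 3 and 4, short of the threshold after adjustment. From 500 kb to 970 kb, a class chosen after the data were seen, the lower and higher sides held 21 and 17 partners in Sample 3. They held 8 and 34 in Sample 4 and 8 and 28 in Sample 5. The higher share was 44.7% (28.6 to 61.7), 81.0% (65.9 to 91.4) and 77.8% (60.8 to 89.9). The higher side therefore held most far partners in Samples 4 and 5 and not in Sample 3. The 3 libraries gave a mean of 67.8% ± 20.1 (SD, n = 3), and the mean without Sample 3 was 79.4%.

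No test of this difference between libraries is given, because the class was chosen on the same counts and each library is 1 sample. Against expected counts, far partners on the higher side were 1.93, 7.12 and 6.86 times expected in Samples 3, 4 and 5, and those on the lower side 2.05, 1.46 and 1.67 times. These values describe the class and are no test of it. Ends of trans di-tags in the far class numbered 2133, 2419 and 2708 on the lower side and 1957, 2321 and 2479 on the higher side, slightly fewer there in each library.

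**Figure D3:**
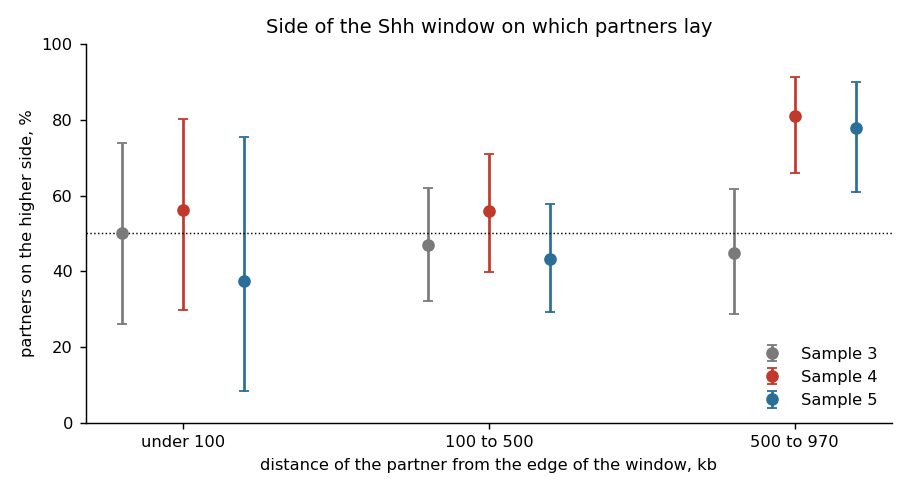
Percent of Shh partners on the higher side, by distance from the window edge in kb and by library, with 95% exact binomial intervals. The dotted line marks equal sides. Samples 4 and 5 lie at 81.0% and 77.8% in the farthest class, where Sample 3 lies at 44.7%.

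Other windows of the genome show how unusual this balance was. Among windows of 40 kb with at least 50 partners in the same range, 15985 in Sample 3, 14955 in Sample 4 and 11930 in Sample 5, the higher share of the Shh window lay at percentiles 39.2, 89.5 and 67.6. Among the 7350, 1553 and 752 windows with at least 20 far partners, its far share lay at percentiles 39.7, 89.8 and 85.6. Even in Samples 4 and 5, more than 10% of such windows, Shh included, had a far share on the higher side at least as large. By the size of the imbalance to either side, Shh lay at percentiles 21.6, 79.1 and 34.7 over the whole range and 20.9, 79.1 and 70.5 among far partners. Over the whole range the imbalance was therefore smaller than that of most windows in Samples 3 and 5. Windows were not matched in partner number. The Shh window had 103, 101 and 95 partners, and shares from fewer partners scatter more. With at least 100 partners required, which left Samples 3 and 4, its higher share lay at percentiles 38.2 and 91.2. The size of its imbalance lay at percentiles 23.6 and 82.8 there.

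In bins of 50 kb, Shh partners stood above expected in a few places. Of 60 partner bins, 0 were called higher than expected in Sample 3, 2 in Sample 4 and 3 in Sample 5 (two-sided exact Poisson test, Benjamini-Hochberg over all bins of all windows, adjusted p under 0.05). Over all such windows 0.130%, 0.305% and 0.269% of bins were called higher. None of the 60 was called lower, where 0.120%, 0.171% and 0.138% of all bins were. That is no result about Shh. Its expected counts, at most 6.58 in a bin, were too small for such a call even in an empty bin. At an unadjusted p under 0.05 there were 2, 8 and 11 of 60. All of these were above expected, where 3.0%, 3.24% and 2.95% of all bins were above at that p. Few Shh bins had an expected count large enough to fall below at that p. No bin was called in more than 1 library, so none met the rule for naming, and the 5 bins below are named after their values were seen.

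In Sample 4 the called bins both lay on the higher side. The bin chr5:29600000-29649999, which holds the first 20 kb of the enhancer stretch, had 9 di-tags against 0.418 expected (exact Poisson, adjusted p = 4.1e-06). Of the 9, 3 and 2 lay in the 10 kb bins starting at 29630000 and 29640000. The others lay outside the stretch, on its side towards Shh. This 50 kb bin had 1 against 0.642 in Sample 3 and 3 against 0.338 in Sample 5. The bin chr5:29350000-29399999 had 6 against 0.37 (exact Poisson, adjusted p = 0.00309), with 2 against 0.477 in Sample 3 and 4 against 0.344 in Sample 5. Both bins were above expected in all 3 libraries without passing in the other two.

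In Sample 5 the called bins lay on both sides. The bin chr5:28450000-28499999 on the lower side had 18 di-tags against 2.09 expected (exact Poisson, adjusted p = 1.12e-07), with 7 against 2.34 in Sample 4 and 2 against 3.94 in Sample 3. On the higher side chr5:29650000-29699999, which holds the rest of the enhancer stretch, had 5 against 0.34 (exact Poisson, adjusted p = 0.0208). Only 1 of the 5 lay in the stretch, and the others lay beyond it. This bin had 2 against 0.787 in Sample 3 and 4 against 0.376 in Sample 4. The bin chr5:29800000-29849999 had 9 against 0.763 (exact Poisson, adjusted p = 0.000296), with 3 against 2.52 in Sample 3 and 1 against 0.900 in Sample 4. The bins called in 1 library were thus not the bins called in another. How often bins of the whole genome were called in more than 1 library is not given here, so this is no result about Shh.

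**Figure D4:**
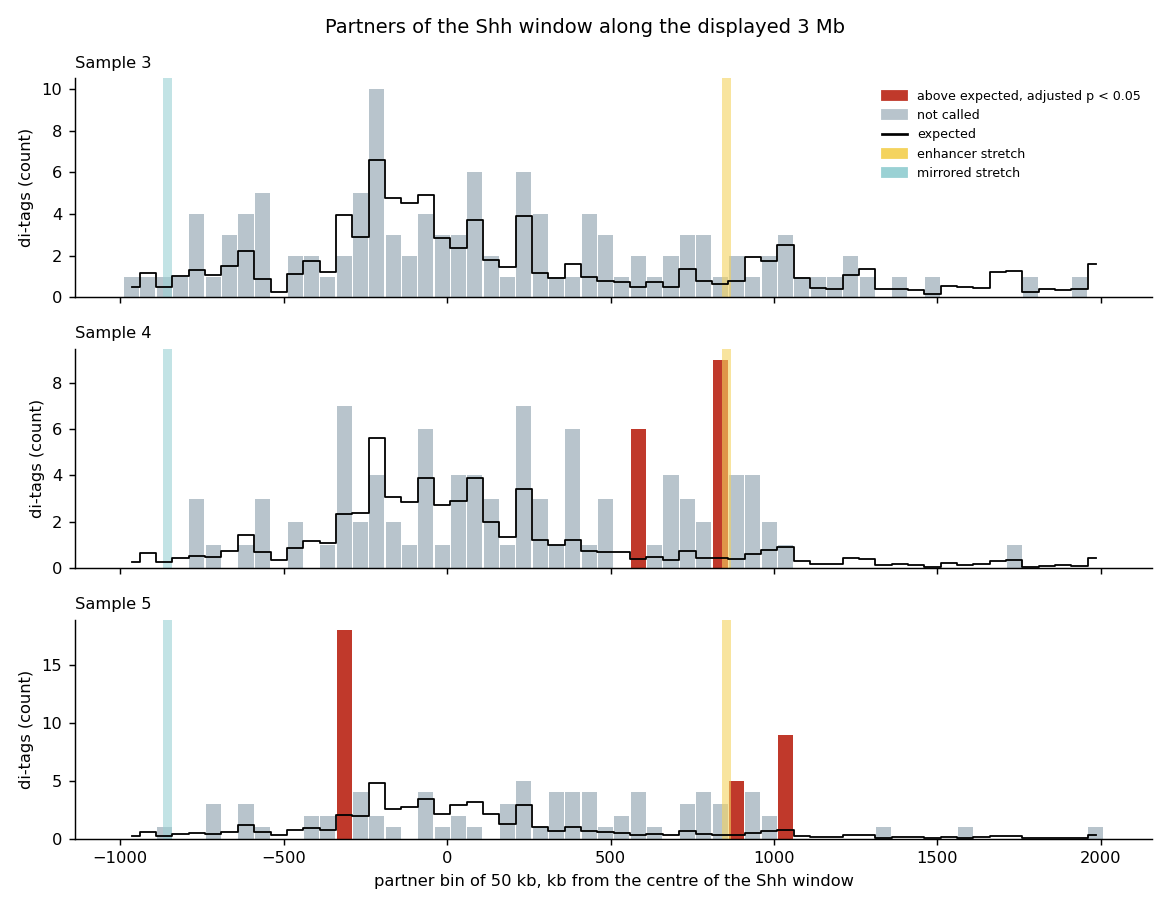
Shh partners (di-tags per 50 kb bin) against distance from the window centre in kb, 1 panel for each library, with the expected count as a black line and called bins in red. The yellow and blue bands are the enhancer and mirrored stretches. The 9 di-tags of Sample 4 in the bin that holds the first 20 kb of the enhancer stretch, some of them outside it, stand out. So do the 18 of Sample 5 on the lower side. Few bins beyond the higher end of the matched range hold di-tags in Samples 4 and 5.

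Beyond the matched range, fewer bins held Shh di-tags, where expected counts fall with distance too. From 29780000 to 30799999 Shh had 14 partners in Sample 3, 3 in Sample 4 and 12 in Sample 5. Observed over expected was 0.884 (0.483 to 1.48), 0.566 (0.117 to 1.65) and 2.66 (1.38 to 4.65). Counts there were thus not shown to be below expected, and in Sample 5 they were above. Of the 20 bins of 50 kb that lie there, 10, 2 and 4 held a di-tag, whereas 19, 18 and 17 of the 19 bins within the range on the same side did. In Sample 5, 9 of these 12 di-tags lay in the bin starting at 29800000.

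At 10 kb the counts were sparse. Of 296 partner bins, 155 held no di-tag in any library and 21 held 1 or more in all 3. Some of the 155, such as the bin starting at 28810000, held no end of any di-tag in any library. The bin chr5:28490000-28499999 had most di-tags of those at least 100 kb away, with 0 in Sample 3, 4 in Sample 4 and 11 in Sample 5. The bin chr5:29800000-29809999 followed with 2, 1 and 6, chr5:29000000-29009999 with 4, 3 and 1, chr5:28500000-28509999 with 3, 1 and 3, and chr5:29700000-29709999 with 1, 4 and 2. Only the last 4 had a di-tag in every library. Against an expected sum of 0.169 di-tags, chr5:29380000-29389999, named after its values were seen, held 1, 3 and 1.

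Pairs of 10 kb regions were also tested by coverage alone, with a cumulative binomial test on pairs with at least 2 di-tags. Of the tested pairs with a region in the Shh window, 7 of 23 were called in Sample 3 against 39.0% of all tested pairs of the genome. In Sample 4, 6 of 10 were called against 61.4%, and in Sample 5, 9 of 18 against 59.9%. Of these, 2 in each library lay inside the window. The shares were close to or below those of the genome and are no result about Shh.

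Among cis pairs at least 100 kb apart, 4 of 14 were called in Sample 3 (22.7% of all such pairs), 3 of 6 in Sample 4 (33.5%) and 7 of 14 in Sample 5 (29.8%). No pair was called in all 3 libraries, and 2 were called in 2 of them. How many pairs of the genome were called in 2 or 3 libraries was not counted, so this recurrence is no result about Shh. The regions starting at 28780000 and 28500000 were joined by 3, 0 and 3 di-tags and called in Samples 3 and 5. Those starting at 28790000 and 28490000 were joined by 0, 3 and 4 and called in Samples 4 and 5. Both lie on the lower side, between 270 and 290 kb from the window regions. With the expected count scaled by distance, 0 Shh pairs were called in any library, where 0.886%, 0.864% and 0.962% of all tested pairs of the genome were.

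Di-tags with no end in the Shh window give the setting in which Shh lies. For each boundary between 50 kb bins, the share of di-tags of 50 kb or longer that crossed it was taken among those with both ends within 500 kb. At the boundary inside the Shh window, 28800000, 27.1%, 17.4% and 17.6% crossed in Samples 3, 4 and 5, whereas the median over 61 boundaries was 36.3%, 31.6% and 30.1%. This boundary was the lowest of the 61 in Sample 4 and the second lowest in Sample 5, and Sample 3 was lowest at 27900000, with 18.6%. Going to higher coordinates the share rose to 43.3% at 29150000 in Sample 4 and 48.8% at 29250000 in Sample 5, and fell again to 25.7% and 23.0% at 29600000. In Sample 3 it rose to 38.7% at 29000000. It was 29.3% at 29150000 and 26.5% at 29250000 in that library, both below its median. Farther on it was 21.2% at 29400000 and reached its highest value, 47.6%, at 29850000.

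The dip partly followed from leaving the Shh di-tags out. With them, 34.4%, 24.8% and 20.0% crossed at 28800000, which then ranked 19, 4 and 2 from the lowest of 61. Few local di-tags of other regions thus spanned the Shh window in Samples 4 and 5, with 30 and 28 crossing di-tags at 28800000 (45 in Sample 3). These counts come from no test and describe these libraries.

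**Figure D5:**
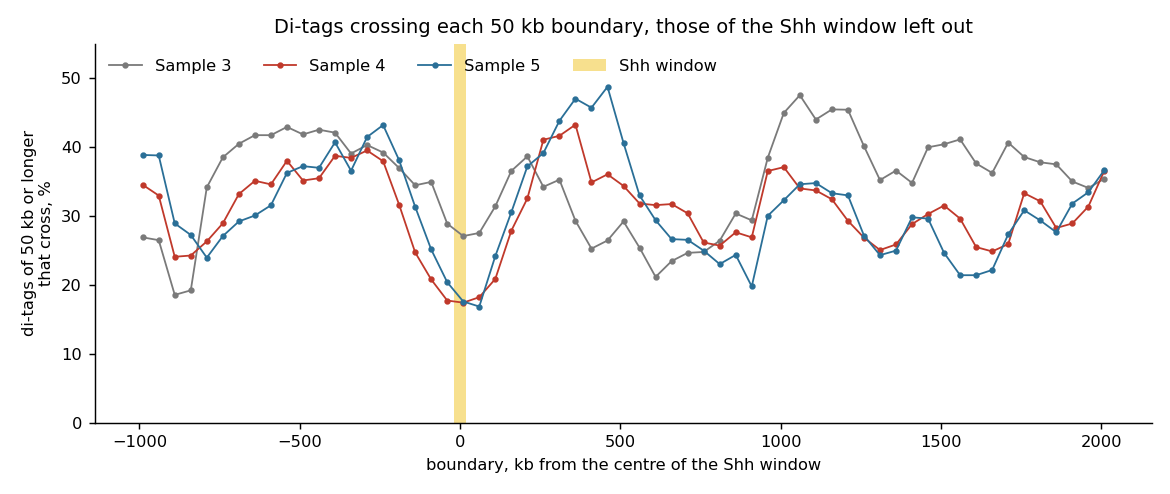
Percent of di-tags of 50 kb or longer, with both ends within 500 kb of a boundary, that crossed it, against the distance of the boundary from the centre of the Shh window in kb. Di-tags with an end in the window are left out, which lowers the curve there. Samples 4 and 5 are lowest at or next to the window, at 17.4% and 16.9%, and Sample 3 is lowest at 18.6% towards the lower end.

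Duplicates were less frequent among Shh di-tags than in the libraries. With duplicates retained, the mean number of copies of a distinct Shh di-tag was 4.69, 4.01 and 3.26 in Samples 3, 4 and 5. The most copied di-tags had 47, 60 and 39 copies. In the whole libraries, 7.24, 5.72 and 5.20 di-tags with duplicates retained stood behind each one left after removal, against 4.71, 4.05 and 3.30 for Shh on the same measure. Shh was thus below its library in 3 of 3 cases, with no test made. The enhancer stretch had 10, 11 and 9 di-tags with duplicates retained, and the mirrored stretch 2, 0 and 2.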

How the data were processed

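Di-tag lists of 3 CHi-C libraries were used, each with duplicates retained and with duplicates removed by the authors. The deposited values are read positions in mm9 with chromosome and strand. The authors truncated, mapped, filtered and de-duplicated the reads with HiCUP (the submitters' processing notes name Bowtie 1.1.0 and mm9). Which fragments were baited is not given in the sources used. After removal the lists held 9376907, 8596799 and 8821161 di-tags.

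Di-tags were counted in regions of 10 kb and bins of 50 kb. Expected counts were the product of the ends in both regions and the mean rate at their distance, in 10 kb steps up to 3 Mb, fitted on all cis pairs of the library. Exact binomial, Poisson and sign-flip permutation tests were two-sided, with 95% intervals (Clopper-Pearson for shares). The cumulative binomial test of pairs was one-sided, with adjustment over all possible pairs of covered regions. Each test across many features was run on simulated data in which some bins or pairs were raised. For 50 kb bins, counts were drawn from the test's own expected counts, and for pairs, second ends were shuffled over the library. Such data cannot show whether the expected counts suit the real libraries. The region, stretches and tests were chosen with earlier results of these data known. Bins were named if called in all 3 libraries, pairs at least 100 kb apart if called in 2, and otherwise the 5 bins of 10 kb with most di-tags; exceptions are marked. Alternatives were duplicates retained, 1 copy of each distinct di-tag, other window and stretch lengths, 1 strand, other expected counts, other thresholds and leaving out each library. The other Hedgehog genes were not analysed here because no mm9 positions were at hand, and no sequence is shown because the RefSeq promoter table used has no entry for Shh. Python 3.11.15, numpy 2.4.6, scipy 1.17.1, pandas 2.3.3 and matplotlib 3.10.9 were used.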

Additional observations from a re-analysis of the deposited data

How the results depend on the processing

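Of 93 alternative values, 56 came from the sign-flip test, which cannot pass a threshold with 3 libraries, so only their direction can be read, and 54 kept it. Keeping 1 copy of each distinct di-tag left the counts as they were or nearly so. The summed ratio of observed to expected for the enhancer stretch was above 1 in all 11 alternatives, which draw on the same di-tags (6 of the 10 from Sample 4) and are not independent of each other. Partners under 500 kb turned the side balance to 48.7% on the higher side, and keeping only plus-strand reads at both ends turned the mean log2 ratio of the enhancer stretch to its flanks to -0.42. Summing di-tags over libraries, which treats them as independent and covers counting error only, gave 4 results an exact binomial p under 0.05 without bearing on the spread between libraries: the log2 ratios of enhancer to mirrored stretch (2.07) and of the reciprocal view (2.81), and the side balance over the whole range (56.2%) and from 500 kb (68.1%), a class chosen on these counts. Leaving out each library in turn moved these means from 0.74 to 2.22, 1.53 to 3.01, 51.2% to 61.1% and 61.3% to 79.4%, lowest without Sample 4 in each case. Keeping only plus-strand reads moved the log2 ratio of the reciprocal view further, to 0.246. It moved that of enhancer to mirrored stretch to 0.774, within the range above. Those values rest on 0, 2 and 0 di-tags to the enhancer stretch in Samples 3, 4 and 5.

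The mean number of Shh pairs called per library, 7.33, became 0 with the expected count scaled by distance, 20 with regions of 50 kb and 328 with duplicates retained. The mean number of 50 kb bins called, 1.67, became 10 with distance alone and ranged from 1 without Sample 5 to 2.5 without Sample 3. The causes of these shifts were not tested, except that copies count as separate di-tags in the retained lists. Observed over expected for the enhancer stretch ranged from 4.30 without Sample 4 to 25.8 with distance alone. Depth limits every contact at this distance: the enhancer stretch rests on 10 di-tags. Stretches and sides were compared within each library, and there is no second group to pair with.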
